A study of Mus musculus with 8 samples.

Results

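Lysyl oxidases, prolyl 4-hydroxylases and lysyl hydroxylases make and crosslink collagen, and 10 of their genes were followed here in the posterior capsule of the mouse knee after 2 weeks in a cast. The members were the lysyl oxidase genes Lox, Loxl1, Loxl2, Loxl3 and Loxl4, the prolyl 4-hydroxylase alpha subunit genes P4ha1 and P4ha2, and the lysyl hydroxylase genes Plod1, Plod2 and Plod3. They were chosen by symbol, with earlier results of these data known, and all 10 were present among the 16464 genes of the deposited table. All animals were wild-type C57BL/6 males, 10 weeks old by the sample labels. The naive group held 4 libraries. The cast group held 4 libraries of mice that wore a cast fixing the knee at 140 degrees for 2 weeks, from 8 weeks of age by the series design text. Whether each library is 1 mouse is not in the labels, and p values here therefore measure only how far these samples spread, which may be technical.

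Collagen chains are modified before they leave the cell. Prolyl 4-hydroxylase, a tetramer of alpha subunits with the beta subunit encoded by P4hb, hydroxylates prolines and so lets the triple helix hold at body temperature. Lysyl hydroxylases hydroxylate lysines, and the enzyme encoded by Plod2 acts mainly on the ends of the chains outside the helix, where crosslinks form. Lysyl oxidases act outside the cell: these copper enzymes oxidise lysines and hydroxylysines of collagen and elastin to aldehydes, which then join neighbouring molecules. Crosslinks stiffen capsule, ligament and tendon, tissues that hold mostly fibrillar collagen.

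Values are normalised read counts, in which each library's reads are scaled by 1 factor, so that 1 read is worth 0.133 to 0.165 in 7 libraries and 0.647 in naive replicate 4. The libraries held 5956148 to 7381255 recovered reads, except naive replicate 4 with 1503880, which also stood apart from naive replicates 1 to 3 across genes (correlation of log2 values 0.882 to 0.897, against 0.979 to 0.982 among those 3). The fibroblast marker list fixed for the tissue check had all 8 genes in the table, and limma called 0 of these 8 (edgeR 0, DESeq2 1, and 1 with an unadjusted p under 0.05). Their sum was 6329 to 9308 in naive and 3726 to 6091 in cast libraries, ranges that do not overlap, and their median log2 fold change was -0.40. None of the 8 was at 0 in any library. Marker lists of several other cell types moved with casting, where limma called 6.51% of all genes higher and 5.46% lower. Not all did. Limma and edgeR called 0 of 7 macrophage genes and 0 of 5 each for endothelium, tendon and smooth muscle. DESeq2 called 1 gene in each of these lists but smooth muscle, where it called 0. The neutrophil list (5 of 6 genes in the table, without Ly6g) summed to 22.3 to 44.0 in naive and 618 to 3269 in cast libraries, and all 5 rose. The skeletal muscle list (8 of 8) summed to 1911, 1224, 2163 and 86.7 in naive replicates 1 to 4 and to 284, 10.6, 11.5 and 81.4 in cast replicates 1 to 4, with 4 of 8 genes lower. The erythroid list (6 of 6) summed to 1173 to 1773 and 3937 to 19828, with all 6 higher, and of these Hbb-bs was at 0 in every naive library. The adipocyte list (6 of 6) summed to 5100 to 9648 in naive and 1957 to 8013 in cast libraries, with Lep and Plin1 lower and a median log2 fold change of -1.16. In the bone list (6 of 6) Ibsp was higher and Bglap and Bglap2 were lower, and in the chondrocyte list Col2a1 was lower of 4 genes tested. The part of these cell types in the results below was not tested, except where a value is given. In bulk tissue, fewer cells of a type and less RNA per cell cannot be told apart.

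The start regions of 3 genes that were lower after casting are shown because P4ha1, P4ha2 and Loxl4 fell by similar factors, and because prolyl 4-hydroxylase genes are known targets of hypoxia-inducible factors. They are RefSeq windows of assembly GRCm38.p6, 250 bases before to 50 bases after the start, written 5′ to 3′ on the strand of the gene. For P4ha2 this start lies inside the gene, and the whole window is downstream of the GENCODE gene start at 54100095. The letters ACGTG and GCGTG, the core that these factors bind, are in capitals on either strand (CACGT and CACGC on the other strand).
P4ha1 (chr10:59323046-59323345, plus strand): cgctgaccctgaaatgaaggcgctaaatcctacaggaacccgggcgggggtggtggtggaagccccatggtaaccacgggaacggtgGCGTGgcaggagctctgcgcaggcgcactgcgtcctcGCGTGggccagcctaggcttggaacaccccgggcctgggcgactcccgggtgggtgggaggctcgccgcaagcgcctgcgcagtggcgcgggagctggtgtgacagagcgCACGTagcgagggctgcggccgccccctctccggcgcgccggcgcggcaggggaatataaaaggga
P4ha2 (chr11:54100674-54100973, plus strand): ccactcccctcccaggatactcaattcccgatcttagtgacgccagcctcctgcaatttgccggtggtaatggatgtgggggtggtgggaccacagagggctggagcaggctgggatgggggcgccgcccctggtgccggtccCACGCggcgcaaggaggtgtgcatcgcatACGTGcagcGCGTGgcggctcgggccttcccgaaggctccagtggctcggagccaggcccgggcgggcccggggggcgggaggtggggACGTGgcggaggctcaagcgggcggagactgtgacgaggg
Loxl4 (chr19:42612757-42613056, minus strand): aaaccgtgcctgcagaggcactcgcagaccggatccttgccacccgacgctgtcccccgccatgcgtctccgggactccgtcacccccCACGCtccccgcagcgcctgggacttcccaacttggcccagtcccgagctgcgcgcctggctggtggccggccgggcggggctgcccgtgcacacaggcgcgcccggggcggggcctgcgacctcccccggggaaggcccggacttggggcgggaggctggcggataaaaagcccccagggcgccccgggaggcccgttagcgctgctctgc
The window of P4ha1 held 3 matches, that of P4ha2 4 and that of Loxl4 1. Plod1 and Plod3, whose change did not pass the test, had 2 and 4. Of all 32851 windows in the RefSeq table, 43.8% held at least 1 match, 20.6% at least 2, 8.93% at least 3 and 3.86% at least 4. A match is a description of letters and not of a bound site. Lox, Loxl1, Loxl2, Loxl3 and Plod2 had no window there.

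Casting went with opposite changes within this enzyme set. Lox rose about 4.16-fold, Loxl2 was 2.87-fold lower, and Loxl4, P4ha1 and P4ha2 were 1.96-fold, 1.75-fold and 2.04-fold lower by the ratio of group means. Loxl1, Loxl3 and the 3 lysyl hydroxylase genes did not pass the test. Groups were compared with limma on log2(value + 1) over 15120 genes, with Benjamini-Hochberg adjusted p at most 0.05 as threshold. Of the 10 members 1 was higher, where 6.51% of all genes tested were higher, and 4 were lower, where 5.46% of all genes were. The median log2 fold change was -0.16 over the members and 0.07 over all genes tested. The same 5 members had groups that did not overlap, 1 higher (11.1% of all genes) and 4 lower (9.39% of all genes). Since the members were chosen with earlier results of these data known, these counts beside the shares of all genes are descriptions.

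**Figure D1:**
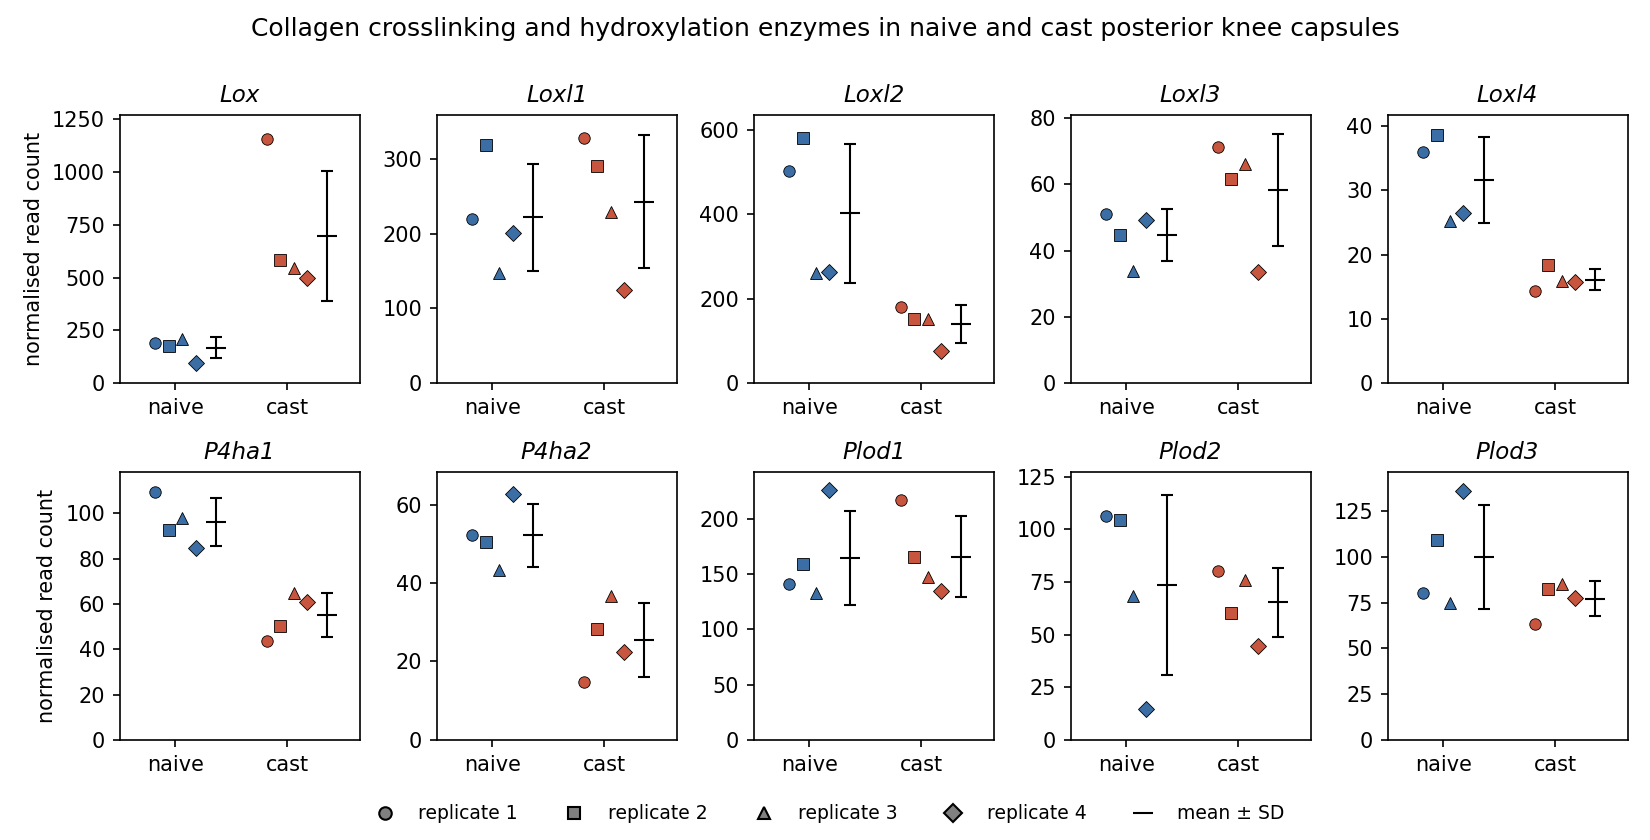
Normalised read counts (vertical axes, each from 0) of the 10 enzyme genes in naive (blue) and cast (red) capsules, with 1 symbol per library and the mean ± SD at the right of each group. Lox lies between 96.4 and 208 in naive and between 496 and 1158 in cast capsules, and the groups of Loxl2, Loxl4, P4ha1 and P4ha2 are apart in the other direction.

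**Figure D2:**
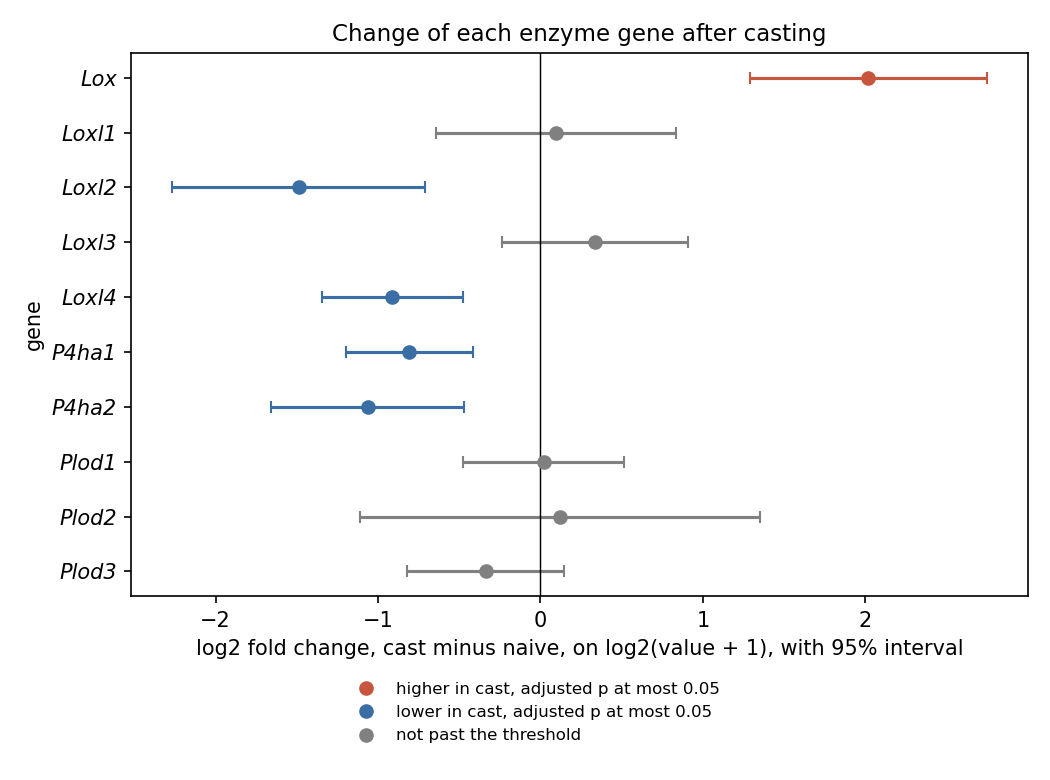
Change of each gene as log2(value + 1) in cast minus naive capsules (horizontal axis), with 95% intervals from limma. The interval of Lox runs from 1.29 to 2.75, those of Loxl2, Loxl4, P4ha1 and P4ha2 lie below 0, and the widest is that of Plod2, from -1.11 to 1.35.

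In the GENCODE annotation of GRCm38 Loxl2 lies on chromosome 14 (69609068 to 69695834, plus strand), Loxl4 on chromosome 19 (42593982 to 42612813, minus strand), P4ha1 on chromosome 10 (59323296 to 59373304, plus strand) and P4ha2 on chromosome 11 (54100095 to 54131665, plus strand). Values are for whole genes.

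Lox encodes the founding lysyl oxidase, which crosslinks fibrillar collagens and elastin. Its values were 191, 175, 208 and 96.4 in naive replicates 1 to 4 and 1158, 585, 548 and 496 in cast replicates 1 to 4. Every cast library lay above every naive library, with cast replicate 1 far above the other 3. The means were 168 ± 49.2 and 696 ± 310 (SD, n = 4 each), and the log2 fold change was 2.02 (SE 0.33, limma adjusted p = 0.00493). The change was larger in size than that of all but 2.51% of the genes tested. Without cast replicate 1 the log2 fold change was 1.74 (adjusted p = 0.00801). It was 1.77 without naive replicate 4, the lowest library for Lox, and 1.62 with array weights. Without both naive replicate 4 and cast replicate 1, a setting added after seeing the data, it was 1.5001. With the muscle gene level as a covariate it was larger, 2.97. The size of the Lox change thus depended on the setting. Lox was the only member past a test against a fold of 1.5 (limma treat, adjusted p = 0.0384, with 1.3% of all genes higher and 0.88% lower in that test).

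Loxl2 encodes a lysyl oxidase with scavenger receptor domains that acts on basement membrane collagen IV as well as on fibrillar collagen. Its values were 504, 581, 262 and 263 in naive replicates 1 to 4 and 180, 152, 152 and 76.6 in cast replicates 1 to 4. Naive replicates 1 and 2 stood well above naive replicates 3 and 4, and the highest cast library was still below both of these. The means were 402 ± 165 and 140 ± 44.3 (n = 4 each), with a log2 fold change of -1.49 (SE 0.35, limma adjusted p = 0.0232).

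Loxl4 encodes a further member with scavenger receptor domains, and was the lowest of the 10 genes. Its values were 36.01, 38.6, 25.3 and 26.5 in naive replicates and 14.3, 18.4, 15.95 and 15.7 in cast replicates 1 to 4. The cast libraries were close together and all below the naive ones. The means were 31.6 ± 6.67 and 16.1 ± 1.70 (n = 4 each), with a log2 fold change of -0.91 (SE 0.19, limma adjusted p = 0.0164).

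Loxl1, whose enzyme is tied to the upkeep of elastic fibres, and Loxl3 did not pass the test. Loxl1 ranged from 147 to 319 in naive and from 125 to 328 in cast libraries (means 222 ± 71.9 and 243 ± 88.8). Its log2 fold change was 0.10, with a 95% interval of -0.65 to 0.84 (limma adjusted p = 0.882). Loxl3 was 44.7 ± 7.77 in naive and 58.1 ± 16.9 in cast capsules, a log2 fold change of 0.33 with an interval of -0.24 to 0.91 (adjusted p = 0.452). The intervals leave room for changes of either sign in both genes. Exons of Loxl3 share 535 bases with Htra2 on the opposite strand, and since the use of strand in counting is not given in the sources used here, its values are uncertain to that extent.

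Per length of transcript, the make-up of the family differed between the groups in each library. Levels were set per kilobase of the longest coding transcript in GENCODE M21, summed over the 5 lysyl oxidase genes, and each gene was taken as a share of that sum. Lox made up 18.0, 14.0, 28.7 and 13.6% in naive replicates 1 to 4 and 61.2, 47.4, 49.4 and 61.8% in cast replicates 1 to 4. Loxl2 made up 42.3, 41.4, 32.3 and 33.0% in naive and 8.48, 11.03, 12.2 and 8.51% in cast replicates. Shares of Loxl1, between 22.4 and 40.7%, overlapped between the groups. The summed level of the family was 198 ± 56.04 per kilobase in naive and 265 ± 96.7 in cast capsules (n = 4 each), and these groups also overlapped. Shares of 1 sum are not independent of each other, and no test was made of them.

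**Figure D3:**
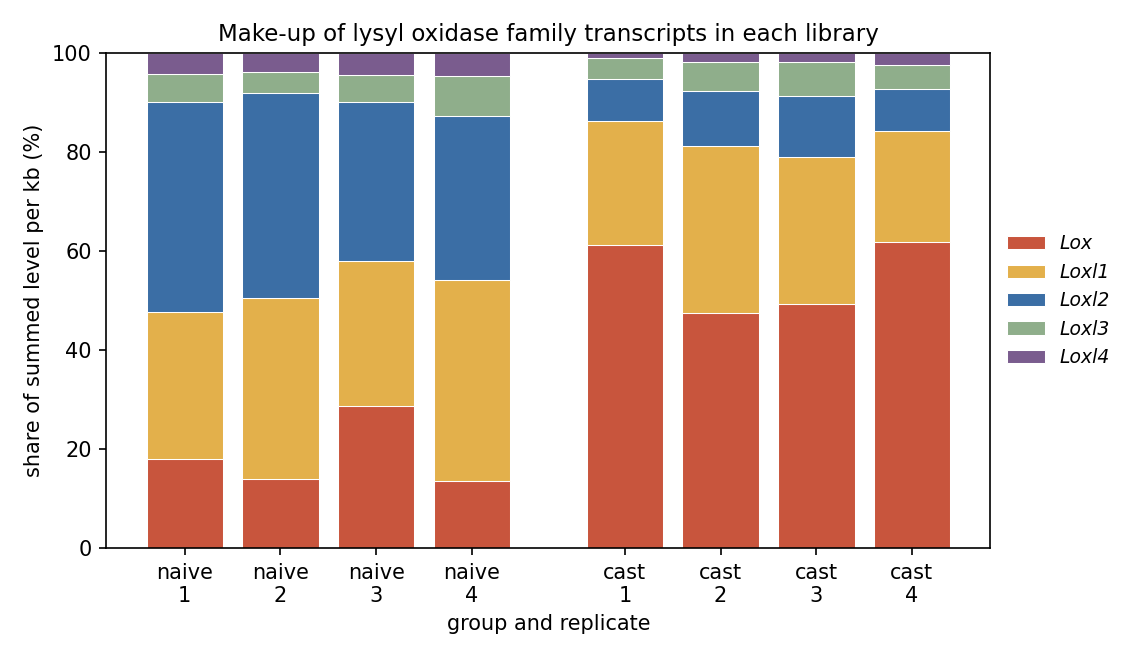
Share of each lysyl oxidase gene in the summed level per kilobase of the family (vertical axis, in percent) for each of the 8 libraries (horizontal axis). The Lox segment covers 13.6 to 28.7% of the naive and 47.4 to 61.8% of the cast bars, and the Loxl2 segment 32.3 to 42.3% and 8.48 to 12.2%.

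The log2 ratio of Loxl2 to Lox within a library was 1.40, 1.72, 0.33 and 1.44 in naive replicates 1 to 4 and -2.68, -1.93, -1.85 and -2.68 in cast replicates 1 to 4. It was thus above 0 in all naive and below 0 in all cast libraries. The difference, cast minus naive, was -3.51. Its two-sided exact permutation p was 0.0286, the smallest that 70 assignments allow, and 0.0857 adjusted over the 3 ratios computed. It did not pass after correction, but beside the larger p of the other ratios no adjusted value under 0.0857 was possible. The corrected test therefore could not decide on this ratio. The Lox and Loxl2 groups were each already apart, in opposite directions. The uncorrected p was thus fixed by those values and adds nothing to them.

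P4ha1 encodes the main alpha subunit of prolyl 4-hydroxylase in most tissues. It was 110, 92.6, 98.2 and 84.7 in naive replicates and 43.8, 50.4, 64.9 and 60.9 in cast replicates 1 to 4. All cast libraries lay below all naive ones. The means were 96.3 ± 10.4 and 55.0 ± 9.65 (n = 4 each), with a log2 fold change of -0.81 (SE 0.17, limma adjusted p = 0.0173).

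P4ha2 encodes the second alpha subunit. It was 52.1, 50.5, 43.3 and 62.7 in naive replicates and 14.7, 28.2, 36.8 and 22.4 in cast replicates 1 to 4. These groups did not overlap either, and cast replicate 1 was the lowest, as it was for P4ha1. The means were 52.2 ± 8.02 and 25.5 ± 9.35 (n = 4 each), with a log2 fold change of -1.06 (SE 0.27, limma adjusted p = 0.0306). The log2 ratio of P4ha2 to P4ha1 differed by -0.26 between cast and naive libraries, which did not pass (two-sided exact permutation p = 0.343, adjusted p = 0.514).

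Beta subunit transcripts did not fall with the alpha subunits. P4hb, chosen once its values were known, had 485 ± 71.3 in naive and 695 ± 92.4 after casting (log2 fold change 0.52, 95% interval 0.09 to 0.95, limma adjusted p = 0.114), which did not pass. Counts of P4ha1 and P4ha2 together per 100 counts of P4hb were 33.9, 30.2, 34.7 and 25.4 in naive replicates 1 to 4. They were 10.1, 10.5, 12.9 and 12.4 in cast replicates 1 to 4, all below the lowest naive value. These are the P4ha1 and P4ha2 values, already apart between the groups, on another scale. P4hb also serves as a disulfide isomerase outside this enzyme. Another alpha subunit gene, P4ha3, likewise chosen once its values were known, had 7.51 ± 4.84 in naive and 12.2 ± 4.56 after casting, short of the threshold (adjusted p = 0.320).

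Muscle marker levels differed between the groups, and the fold changes were also fitted with the muscle gene level as a covariate. The log2 fold change of Loxl2 was then -1.19 (SE 0.54, limma adjusted p = 0.128), that of Loxl4 -0.88 (SE 0.30, adjusted p = 0.0584) and that of P4ha1 -0.77 (SE 0.26, adjusted p = 0.0592), and these 3 calls were lost. That of P4ha2 was -1.74 (adjusted p = 0.00963) and that of Lox 2.97 (adjusted p = 0.00278). In this fit 2 members were lower, P4ha2 and Plod3, and 1 was higher, where 17.1% of all genes were higher and 8.42% lower. Naive replicate 4, the library with the fewest reads, had a muscle marker sum of 86.7, between the cast values of 81.4 and 284. In that library P4ha1 was 84.7, P4ha2 62.7, Loxl2 263 and Loxl4 26.5, each above all cast libraries, and Lox, at 96.4, was at its lowest of the 8. These values rest on 1 library, which also stood apart from the other naive libraries across genes. The part of muscle in the changes was not tested. Without naive replicate 4 the same 1 higher and 4 lower members passed, where 9.15% and 8.52% of all genes did.

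The 3 lysyl hydroxylase genes did not pass the test. Plod1, whose enzyme hydroxylates lysines within the helix, was 141, 159, 133 and 226 in naive and 217, 165, 147 and 134 in cast replicates 1 to 4. The groups covered nearly the same range, with means of 164 ± 42.3 and 166 ± 36.3. The log2 fold change was 0.02 with a 95% interval of -0.48 to 0.52 (limma adjusted p = 0.965), so that a change beyond 1 log2 unit in either direction lies outside the interval.

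Plod2 was 107, 104, 68.1 and 14.9 in naive and 80.4, 60.4, 75.8 and 44.4 in cast replicates 1 to 4. Naive replicate 4 was the lowest of all 8 libraries, and its value rested on 23 reads (95% exact Poisson counting interval 9.43 to 22.3). With all libraries the log2 fold change was 0.12, with an interval of -1.11 to 1.35 (limma adjusted p = 0.912). Without naive replicate 4 it was -0.51 and still did not pass (adjusted p = 0.164). With the muscle covariate it was 1.62, also short of the threshold (adjusted p = 0.0804). The log2 ratio of Plod2 to Plod1 likewise differed by 0.10 with all libraries and by -0.69 without naive replicate 4 (two-sided exact permutation, adjusted p = 0.971 and 0.129).

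Plod3, which encodes an enzyme that both hydroxylates lysines and adds sugars to them, was 99.9 ± 28.3 in naive and 77.1 ± 9.67 in cast capsules. Its log2 fold change was -0.34 with an interval of -0.82 to 0.15 (limma adjusted p = 0.363). With the muscle gene level as a covariate the log2 fold change was -0.92 and passed (adjusted p = 0.0195). Naive replicate 4, whose muscle marker sum was the lowest of the naive libraries (86.7), held the highest Plod3 value, 136. With no covariate, the log2 fold change was -0.18 without that library (limma adjusted p = 0.510) and -0.08 with array weights (adjusted p = 0.744). The muscle covariate was not fitted without that library. Exons of Plod3 share 529 bases with Znhit1 on the opposite strand.

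The order of the genes per kilobase was not the same in both groups. In naive capsules Loxl2 was highest (75.7 ± 31.0 per kilobase), then Loxl1 (67.3 ± 21.8), Plod1 (50.7 ± 13.03) and Lox (35.3 ± 10.4), and Loxl4 was lowest (8.45 ± 1.78). Every gene overlapped in range with the next in this naive order. Within libraries, Loxl3 (10.9 ± 1.90) was above Loxl4 in all 4 naive libraries, and each other gene was above its next neighbour in 2 or 3 of 4. In cast capsules Lox was highest (147 ± 65.3), apart from Loxl1 (73.7 ± 26.9) next to it. Plod1 (51.1 ± 11.2) came next and was apart from Loxl2 (26.4 ± 8.34). P4ha1 (13.6 ± 2.39) and P4ha2 (11.3 ± 4.13) stood in places 8 and 9, and Loxl4 (4.31 ± 0.46) was last and apart from them. The other neighbours in the cast order overlapped in range, though Plod2 was above Loxl3 in all 4 cast libraries.

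Lox and Loxl2 also differed between the groups relative to the transcripts of fibrillar collagens, which are among their substrates. These are the same Lox and Loxl2 values on another scale, which holds no collagen IV chain. Col1a1, Col1a2 and Col3a1, the chains of collagens I and III, did not pass the test (limma adjusted p = 0.867, 0.682 and 0.997). Their summed counts were 28248, 35752, 13439 and 19463 in naive replicates 1 to 4 and 35894, 22020, 25846 and 9721 in cast replicates 1 to 4, with wide overlap. Per 1000 of these counts, Lox was 6.75, 4.90, 15.5 and 4.95 in naive and 32.3, 26.6, 21.2 and 51.0 in cast replicates. Loxl2 per 1000 was 17.8, 16.2, 19.5 and 13.5 in naive and 5.01, 6.92, 5.87 and 7.88 in cast replicates. P4ha1 per 1000 collagen counts ranged from 2.59 to 7.31 in naive and from 1.22 to 6.27 in cast libraries, so on this scale its groups overlapped. P4ha2 (1.41 to 3.22 and 0.41 to 2.30) and Loxl4 (1.08 to 1.88 and 0.40 to 1.62) overlapped too.

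**Figure D4:**
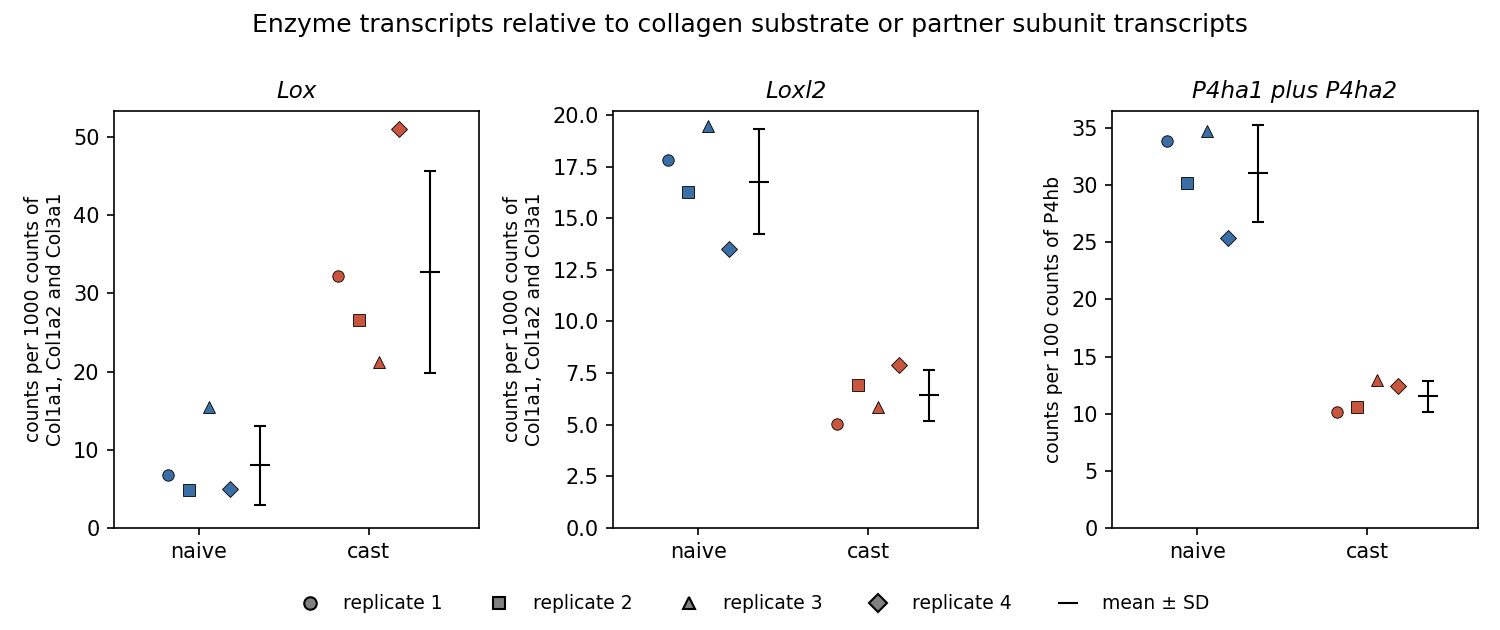
Counts of Lox and Loxl2 per 1000 summed counts of Col1a1, Col1a2 and Col3a1, and of P4ha1 plus P4ha2 per 100 counts of P4hb (vertical axes, each from 0), by library, with mean ± SD. Cast libraries lie at 21.2 to 51.0 against 4.90 to 15.5 for Lox, at 5.01 to 7.88 against 13.5 to 19.5 for Loxl2, and at 10.1 to 12.9 against 25.4 to 34.7 for the alpha subunits.

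Other genes of collagen making are given by list, and each count of calls stands against 6.51% of all genes higher and 5.46% lower. Of 9 further hydroxylase and glycosyltransferase genes, 2 were lower and 7 did not pass, with a median log2 fold change of -0.02. Colgalt2, which encodes a collagen galactosyltransferase, fell from 42.6 ± 7.35 to 12.6 ± 2.65 (log2 fold change -1.69, limma adjusted p = 0.00149). P3h2, a prolyl 3-hydroxylase gene, was 13.9 ± 2.13 in naive and 7.43 ± 2.04 after casting (log2 fold change -0.84, adjusted p = 0.0403), a call lost without naive replicate 1, 2 or 3 or cast replicate 2, 3 or 4 (adjusted p = 0.0818 to 0.115). Of 12 chaperone and export genes in the table, 1 was higher, a share near that of all genes, and 11 did not pass (median -0.06). Tmem38b, which encodes a potassium channel of the endoplasmic reticulum needed for collagen assembly, was 12.2 ± 2.64 in naive and 24.8 ± 4.65 after casting (log2 fold change 0.97, adjusted p = 0.0173; 0.0560 without naive replicate 2). Serpinh1, the collagen chaperone HSP47, chosen after its values were seen, was 793 ± 236 and 429 ± 153 and did not pass (adjusted p = 0.0878).

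Of 7 procollagen processing genes, 1 was higher, 1 lower and 5 did not pass (median -0.35). Pcolce2, an enhancer of the C-terminal procollagen protease, fell from 195 ± 66.04 to 54.7 ± 26.8 (log2 fold change -1.91, limma adjusted p = 0.0125). Adamts3, a protease that trims procollagen ends, was 5.54 ± 2.76 in naive and 14.7 ± 2.68 after casting (log2 fold change 1.35, adjusted p = 0.0218), a call lost without naive replicate 2 or cast replicate 1 or 3 (adjusted p = 0.0508 to 0.0598).

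Of 10 genes for partners of lysyl oxidases and guides of fibril growth, 2 were higher, 2 lower and 6 did not pass (median 0.07). Efemp2, which encodes fibulin-4, a protein that brings lysyl oxidase to elastic fibres, was 55.7 ± 11.9 in naive and 124 ± 34.7 after casting (log2 fold change 1.13, limma adjusted p = 0.0181). Its call was lost without naive replicate 3 or cast replicate 2 or 3 (adjusted p = 0.0518 to 0.0633). Lum, the fibril-binding proteoglycan lumican, rose from 252 ± 169 to 1678 ± 228, a log2 fold change of 3.22 (adjusted p = 0.0157, and 0.0520 without cast replicate 3), and of 2.40 without naive replicate 4. Naive replicate 4, at 31.7, was the lowest library for Lum as for Lox and Plod2. Ltbp4, which links latent TGF-beta to elastic fibres, fell from 472 ± 97.8 to 133 ± 43.6 (log2 fold change -1.85, adjusted p = 0.00283). Fn1, fibronectin, was 23602 ± 6355 and 7218 ± 3619 (log2 fold change -1.81, adjusted p = 0.0390), a call lost without naive replicate 1, 2 or 3 or cast replicate 3 or 4 (adjusted p = 0.0723 to 0.122).

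Transglutaminases, which join matrix proteins by another kind of bond, had 3 genes tested, and limma called 0 of these. Of them 2 had an unadjusted p under 0.05 (Tgm1 and F13a1), edgeR called 1 and DESeq2 2. Tgm1 was 2.87 ± 2.10 in naive and 9.32 ± 3.67 in cast capsules (limma adjusted p = 0.0527). Of 10 substrate genes, 2 were lower and 8 did not pass (median -0.28). Col2a1, the cartilage collagen, fell from 8.72 ± 3.95 to 1.07 ± 0.81 (log2 fold change -2.22, limma adjusted p = 0.00573). Its values in cast replicates 1 to 4, 2.14, 1.20, 0.27 and 0.67, were near the floor, where 1 read was worth 0.133 to 0.165. Col5a3, a chain of collagen V, was 221 ± 84.6 and 85.5 ± 31.7 (log2 fold change -1.37, adjusted p = 0.0300), a call lost without naive replicate 1 or 2 or cast replicate 2, 3 or 4 (adjusted p = 0.0514 to 0.0782).

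Hypoxia response genes, listed because hydroxylase and oxidase genes are often counted among them, had 16 tested members, of which 1 was higher, 2 were lower and 13 did not pass (median 0.14). The share higher was near the 6.51% of all genes. Egln1, the oxygen sensor that marks hypoxia-inducible factors, fell from 71.1 ± 5.59 to 41.6 ± 1.57 (log2 fold change -0.76, limma adjusted p = 0.00926). Hk2, a hexokinase, fell from 110 ± 24.4 to 50.1 ± 11.7 (log2 fold change -1.13, adjusted p = 0.0103). Adm, adrenomedullin, was 29.7 ± 3.55 in naive and 75.9 ± 33.2 after casting (log2 fold change 1.24, adjusted p = 0.0215), a call lost without naive replicate 2 or 3 or cast replicate 2 or 3 (adjusted p = 0.0509 to 0.0645). Prolyl and lysyl hydroxylases use 2-oxoglutarate and ascorbate, and of 7 genes for their supply 1 was higher, 1 lower and 5 did not pass (median 0.07). Slc2a3, a glucose transporter that also carries oxidised vitamin C, rose from 10.04 ± 3.17 to 52.02 ± 35.7, a log2 fold change of 2.09 (adjusted p = 0.0135), and of 1.42 without cast replicates 1 and 2 (adjusted p = 0.0696). Glud1, which makes 2-oxoglutarate from glutamate, was 347 ± 16.4 and 216 ± 25.8 (log2 fold change -0.69, adjusted p = 0.0206), a call lost without naive replicate 2 or 3 or cast replicate 3 (adjusted p = 0.0581 to 0.0739). With the muscle covariate the calls of P3h2, Efemp2, Fn1, Col5a3, Adm, Slc2a3 and Glud1 were lost (limma adjusted p = 0.0548 to 0.235). Without cast replicates 1 and 2 those of P3h2, Tmem38b, Pcolce2, Adamts3, Lum, Efemp2, Col5a3, Egln1 and Slc2a3 were lost (limma adjusted p = 0.0552 to 0.140).

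The genes most like each changed member over the 8 libraries were found by the root mean square difference of log2(value + 1) after centring, among 11307 genes. These distances are descriptions, over libraries that share the 2 groups. For Lox the nearest were Sla (0.15 log2 units), an adaptor of leukocyte signalling, at 9.54 ± 3.12 in naive and 48.5 ± 20.9 in cast capsules, and Arhgap19 (0.25). For Loxl2 they were Sdk2 (0.25) and Cidea (0.26), and for Loxl4 Prkd1 (0.13) and Slc18b1 (0.14). For P4ha1 they were Lactb2 (0.07) and Mmaa (0.09), both of mitochondria, and for P4ha2 Aldh4a1 (0.12), a mitochondrial enzyme of proline breakdown, and Vwa1 (0.17). Vwa1 did not itself pass (limma adjusted p = 0.0506), and the call of Mmaa was lost in 7 of 8 fits with 1 library left out. No link in function between these genes and the members was tested. Among the members themselves the closest pair was Loxl4 and P4ha1 (0.24), then Loxl1 and Loxl3 (0.29).

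The 4 lower members were less firm than Lox. With 1 library left out at a time, the log2 fold change of Lox was 1.74 to 2.15 and passed each time (limma adjusted p at most 0.0176). The call of Loxl2 was lost without naive replicate 1 or 2 or cast replicate 2 or 3 (adjusted p = 0.0509 to 0.0663) and that of Loxl4 without naive replicate 2 or cast replicate 3 (0.0535 to 0.0552). The call of P4ha1 was lost without naive replicate 3 or cast replicate 2 (0.0535 to 0.0545), and that of P4ha2 without naive replicate 1, 2 or 3 or cast replicate 2 or 4 (0.0549 to 0.0741). In each of these fits the 4 genes stayed lower in cast capsules, with log2 fold changes from -1.66 to -0.71. On recovered reads, edgeR and DESeq2 called the same 1 higher and 4 lower members, with 7.29% and 9.69% of all genes higher and 6.2% and 8.54% lower. Lox stayed higher in each setting named next. Without cast replicate 1 all 4 lower members passed (5.13% of all genes higher, 4.64% lower). Without cast replicates 1 and 2 none of the 4 did, with adjusted p = 0.0723 to 0.134 in limma (2.47% higher, 2.26% lower). With the replicate number as a block 2 were lower, Loxl2 and Loxl4 (5.17% higher, 3.9% lower).

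**Figure D5:**
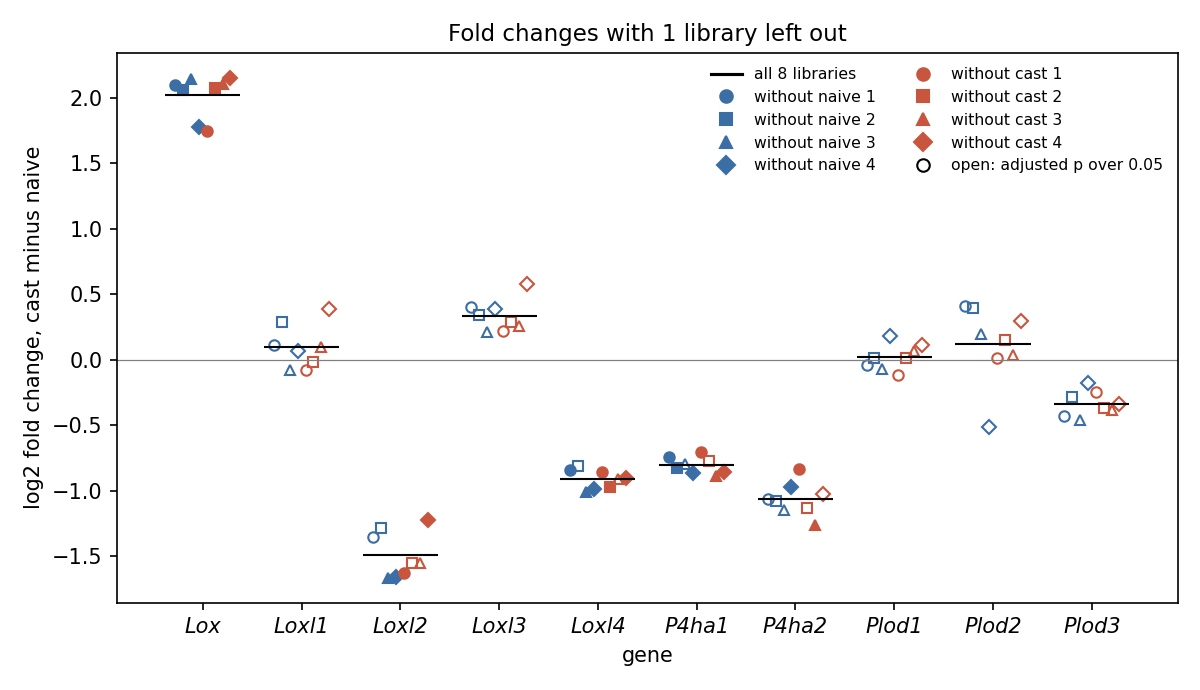
Log2 fold changes, cast minus naive (vertical axis), of the 10 genes (horizontal axis) with all 8 libraries (line) and with each library left out (symbols, filled where the adjusted p is at most 0.05). Lox stays between 1.74 and 2.15 with all symbols filled, while Plod2 turns from 0.12 to -0.51 without naive replicate 4.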

How the data were processed

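RNA of frozen posterior knee capsules (4 naive and 4 cast libraries) was depleted of ribosomal RNA, made into strand-marking libraries and read from both ends, per the labels' protocols. That text gives Trimmomatic 0.38 and the human build hg38, whereas Trimmomatic 0.36 and the mouse build mm10 stand in the submitters' processing notes, and both give Bowtie2 and RSEM. The notes add edgeR. The symbols in the table are mouse symbols. The signal values the authors deposited are normalised read counts. Dividing a library's values by their step gave whole reads (within 0.01, 100% of values). The smallest read sum of a gene was 8.

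limma-trend was run on log2(value + 1) for the 15120 genes whose mean reached 0.5, with Benjamini-Hochberg adjustment over these. The 3 ratios of members were compared by two-sided exact permutation over 70 assignments. Lengths came from GENCODE M21 (GRCm38, the assembly of mm10). Named genes were the 10 members, up to 4 of each list by smallest p among those past the threshold (else 1), 3 collagen genes and the 2 nearest genes of each changed member. Members and lists were chosen with earlier results of these data known. Alternatives were other pseudocounts (0.5 and 5), filters, scalings, array weights, a muscle covariate, the replicate block, libraries left out, treat, and edgeR and DESeq2 on the recovered reads. Versions were limma 3.58.1, DESeq2 1.42.0 and edgeR 4.0.16 under R 4.3.3, and scipy 1.17.1, matplotlib 3.10.9, numpy 2.4.6 and pandas 2.3.3 under Python 3.11.15. In simulated cast against naive data with 15120 genes, 17 of 100 genes changed 2-fold were called by limma, as were 78 of 100 changed 4-fold and 7 of 14920 left alone.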

Additional observations from a re-analysis of the deposited data

Results flagged for a closer look

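By Dixon's test 1 library lay far from the other 3 in 2 of 80 groups of 4 libraries, taken over the members and named genes, where chance gives about 1 in 20. The Lox value of cast replicate 1 was 1158, and the remaining cast libraries had 496 to 585. The Egln1 value of naive replicate 1 was 62.8, and the remaining naive libraries had 73.2 to 75.0.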

How the results depend on the processing

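Lox was higher and passed in all 24 alternatives, with log2 fold changes from 1.5001 (without naive replicate 4 and cast replicate 1) to 2.97 (muscle covariate). The number of genes called, 1810, was 3985 with array weights, 3856 with the muscle covariate, 329 with treat, 2754 with DESeq2, 715 without cast replicates 1 and 2, 3275 without naive replicate 4 and cast replicate 1 (a setting added after seeing the data), and 920 to 2672 with 1 library left out. The 4 lower members were 2 with the muscle covariate (Loxl2 -1.19, Loxl4 -0.88 and P4ha1 -0.77 no longer passed, with larger SEs, P4ha2 was -1.74 and Plod3 passed), 0 with treat, 0 without cast replicates 1 and 2 (adjusted p = 0.0723 to 0.134) and 1 to 4 with 1 library left out. The replicate numbers showed no sign of pairing the libraries (correlations of deviations -0.057 to 0.08, 1 of 4 naive libraries closest to its own number). This check cannot exclude a pairing. With the replicate block 1371 genes (5.17% of all higher, 3.9% lower) and 2 lower members (Loxl2 and Loxl4) were called. Log2 fold changes that did not pass shifted as follows, and some of them turned sign. In the main fit they were 0.10 for Loxl1, 0.02 for Plod1 and 0.12 for Plod2. For Col1a1, Col1a2 and Col3a1 they were -0.20, -0.37 and -0.0036. Loxl1 was -0.34 without cast replicates 1 and 2, -0.11 without naive replicate 4 and cast replicate 1, and -0.08 to 0.39 with 1 library left out. Plod1 was -0.25 with the muscle covariate, -0.19 without cast replicates 1 and 2, and -0.12 to 0.18 with 1 left out. Plod2 was 1.62 with the muscle covariate, and turned to -0.40 with array weights, -0.20 with edgeR, -0.18 with DESeq2, -0.0074 without cast replicates 1 and 2, -0.62 without naive replicate 4 and cast replicate 1, and -0.51 to 0.41 with 1 left out. Col1a1 was 0.10 with the muscle covariate, 0.0347 with edgeR, 0.0328 with DESeq2, -0.7248 without naive replicate 4 and cast replicate 1, and -0.66 to 0.34 with 1 left out. Col1a2 was -0.7752 in that added setting, 0.0488 without cast replicate 4, and -0.71 to 0.0488 with 1 left out. Col3a1 was 0.53 with quantile normalisation, 0.0441 with scaling without muscle, erythroid and marrow genes, 0.0686 with array weights, 0.0366 with the muscle covariate, 0.0013 with edgeR, and -0.26 to 0.31 with 1 left out. The ratio of Plod2 to Plod1 was -0.67, and that of P4ha2 to P4ha1 0.0201, without naive replicate 4 and cast replicate 1, and -0.69 to 0.45 and -0.37 to -0.11 with 1 left out. The ratio of Loxl2 to Lox was -3.80 to -3.34 there. The cause of these shifts was not tested. In naive replicate 4 Plod2 and Loxl4 rested on 23 and 41 reads. The counting interval of Plod2 there, 9.43 to 22.3, lay below its lowest value elsewhere, 44.4 in cast replicate 4.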
